A study of Mus musculus with 6 samples.

Results

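The cytosolic ribosomal protein genes encode the proteins of the large and small subunits of the ribosome that translates nuclear-encoded mRNA. They were chosen here by name: every mouse symbol made of Rpl or Rps, a number and at most 1 ending of a, x or l, with Rplp0, Rplp1, Rplp2 and Rpsa added and pseudogene names holding "-ps" left out. This rule took 81 of the 24062 rows of the count tables, 49 of the large and 32 of the small subunit. It leaves out subunits with other names, such as Fau, Rps3a1 and Gnb2l1, which are given apart.

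The study measured polyA RNA by sequencing in marrow cells of C57BL/6J mice that were grown with GM-CSF, the myeloid growth factor used to raise dendritic cells from marrow. All 6 cultures received GM-CSF at 20 ng/ml. They differed in the stiffness under the cells: 3 libraries came from low tension (2 kPa) and 3 from high tension (50 kPa), and the question was how stiffness alters transcription. Whether the libraries of a group stem from separate animals or cultures is not in the labels, and the p-values cover only the spread between these libraries, which may be technical. At 50 kPa libraries 1 and 2 stood close together. Over all tested genes the interquartile range of their log2 CPM difference was 0.17, while the other same-group pairs had ranges of 0.40 to 0.63. Their counts still differed by more than counting noise (chi-square per degree of freedom 6.87 over genes with a mean of at least 10 counts, against 129 to 231 for the other pairs). The median over genes was 1.20, against 5.62 to 32.0 for the other pairs, and 25.4% of genes were over the 5% cut. This check cannot tell separate cultures from 2 preparations of 1 culture. Libraries 1 and 2 were kept as 2 libraries, and fits with them summed are given too. With them summed, or without either of them, edgeR called 0 genes in the whole table, and without 2 kPa library 2 or 3 it called 1 and 3, so none of the calls named below holds in the former fits.

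The ribosomal proteins are needed in equal numbers, because each ribosome holds 1 copy of nearly all of them, and the exception is the stalk, which carries several copies of Rplp1 and Rplp2. Their mRNAs are among the most abundant of any growing cell. Most of them begin with a cytosine and a run of pyrimidines at the cap, the 5' terminal oligopyrimidine (TOP) start, through which mTOR and LARP1 set their translation. Paralogues such as Rpl3l, Rpl10l and Rpl39l are known from single tissues, and Rps27l is known as a target of p53.

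The starts of 4 genes are shown because this TOP feature is what the class is known for, and because 2 of them, Rpl31 and Rps27l, had the smallest p-values of the set and lack the run at the listed start. Each line holds 30 bases of GRCm38.p6 from RefSeq, 15 before the annotated start and 15 from it on, read 5' to 3' on the gene's strand, with the run of pyrimidines that opens with C in capitals. Rps6 lies at chr4:86857353-86857382 (minus), Rpl38 at chr11:114668565-114668594 (plus), Rpl31 at chr1:39367836-39367865 (plus) and Rps27l at chr9:66946071-66946100 (plus).
Rps6: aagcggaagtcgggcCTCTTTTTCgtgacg
Rpl38: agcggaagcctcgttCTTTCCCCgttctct
Rpl31: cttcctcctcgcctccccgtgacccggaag
Rps27l: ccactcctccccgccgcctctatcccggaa
Of the 81 genes, 60 had a start in the RefSeq promoter table, with 72 starts in all. A C followed only by C or T, for at least 5 bases in all, opened 13 of the 72 starts (18.1%), against 2.51% of the 32851 starts in the table. An annotated start can lie some bases from the start that a cell uses, so the absence of the run at a listed start says only that these letters are not there. The letters CCGGAAG, searched on both strands over the 250 bases before to 50 bases after the start, were present at 26 of the 72 starts (36.1%), against 8.86% of all starts. TATAAA, searched on both strands in the 50 bases before the start, was at 0 of the 72 starts, against 3.50% of all.

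A second set of sequences shows how alike the ribosomal protein genes can be, which bears on how their reads can be counted. The lines give the first 60 coding bases of Rps27, of its retrocopy Rps27rt and of its paralogue Rps27l, from GENCODE vM21 transcripts (GRCm38), with bases of Rps27l that differ from Rps27 in capitals. The genes lie at chr3:90212522-90213651 (minus), chr9:114982366-114982739 (minus) and chr9:66946086-66949516 (plus).
Rps27: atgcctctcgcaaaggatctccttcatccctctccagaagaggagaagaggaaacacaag
Rps27rt: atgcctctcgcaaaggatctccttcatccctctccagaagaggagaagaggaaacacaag
Rps27l: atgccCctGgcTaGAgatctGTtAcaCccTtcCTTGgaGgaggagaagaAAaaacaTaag
The coding sequences of Rps27 and Rps27rt were identical over all 252 bases. Rps27l differed from them at 60 of the 252 (76.2% identity), and its longest identical run was 11 bases, so reads of Rps27l can be told from those of Rps27 while reads of the Rps27 coding sequence match Rps27rt as well.

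No ribosomal protein gene passed the test between the stiffnesses, and most had a positive log2 fold change with TMM scaling. In edgeR's quasi-likelihood test with Benjamini-Hochberg adjustment over the 13155 genes tested, 79 of the 81 genes were tested and 0 were called higher and 0 lower at an adjusted p under 0.05, with adjusted p-values from 0.0747 to 0.993. Over all genes the same test called 1.47% higher and 1.98% lower. At an unadjusted p under 0.05 there were 3 (Rps27l, Rpl31 and Rpl3l) of 79, against 27.8% of all genes. DESeq2 called 1, Rps27l, against 17.0% of all genes. The log2 fold change, 50 kPa over 2 kPa, was positive in 68 and negative in 11 of the 79, where 46.8% of all genes were positive. Its median was 0.18, with quartiles of 0.077 and 0.25 and a range from -0.74 to 0.43, against a median of -0.028 over all genes. Scaled by total counts alone, 51 of the 79 were positive and the median was 0.035, against -0.16 over all genes. The subunits lay close together, with medians of 0.18 for the 47 tested genes of the large and 0.19 for the 32 of the small subunit. In bulk RNA a lower share of cells of some type and less RNA per cell cannot be told apart.

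**Figure D1:**
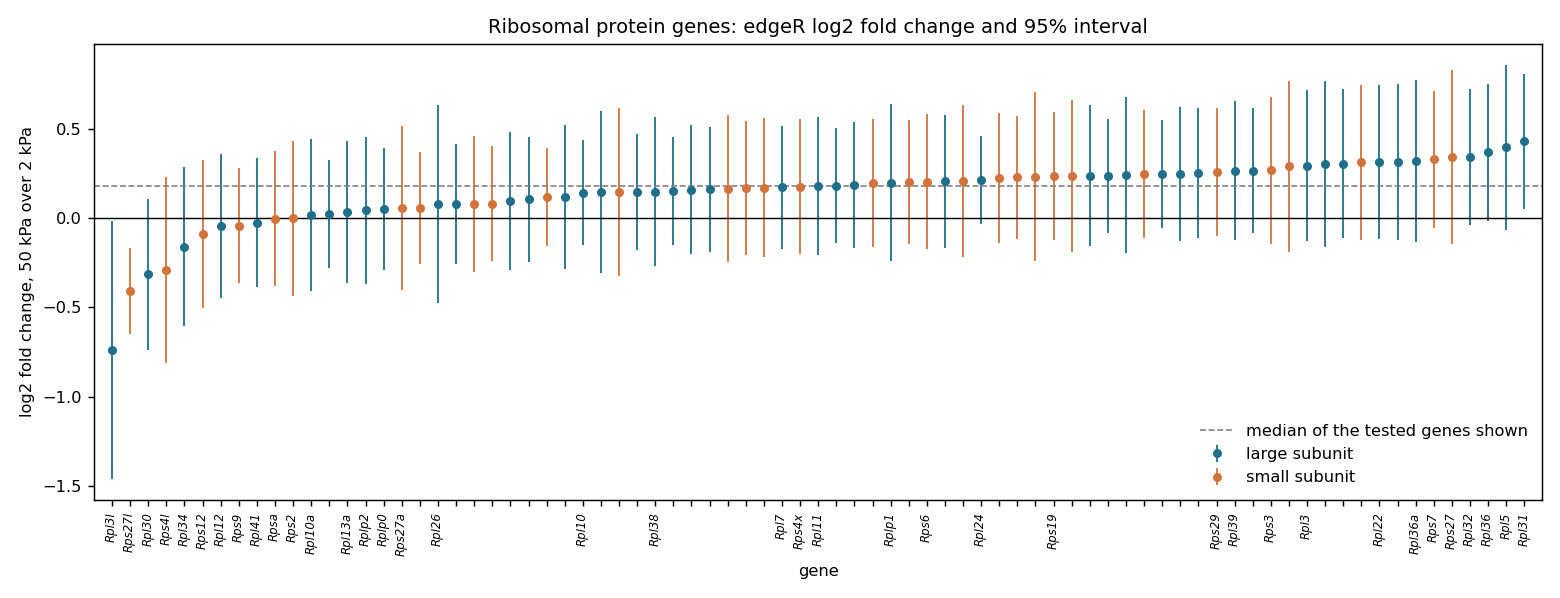
The plot gives, for each of the 79 tested ribosomal protein genes in order of size, the edgeR log2 fold change of 50 kPa over 2 kPa (point) and its 95% interval (line), coloured by subunit, with names under the genes described in the text and a dashed line at their median. Most points lie between 0 and 0.43, and 3 intervals exclude 0: those of Rpl3l and Rps27l below and that of Rpl31 above.

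The intervals set how large a difference these libraries could hold. The 95% interval of the log2 fold change stayed within -1 to 1 for 78 of the 79 genes, the exception being the sparsely counted Rpl3l, while this held for 8708 of the 13155 genes tested. Of the 79 genes 72 were at 100 CPM or more, against 2091 of the 13155, and intervals at like level were not compared. The interval stayed within -0.5 to 0.5 for 21 of the 79, against 3955 of the 13155. In counts simulated at the means and library sizes of this comparison over 13155 genes, the test called 99 of 100 genes changed 8-fold, 19 of 50 changed 2-fold and 0 of 50 changed 1.25-fold. It also called 13 unchanged genes. The changed genes were drawn at random from those at 1 CPM or more, and not at the levels of the ribosomal protein genes. Whether a difference of the size of their median could be detected gene by gene was therefore not tested.

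The levels within a group moved together across the genes, and by amounts like the difference between the stiffnesses. As log2 CPM (a gene's counts relative to its library's TMM-scaled total, the CPM unit used below) minus each gene's mean over the 6 libraries, the median of the 79 genes was 0.067, -0.087 and -0.25 in the 2 kPa libraries 1, 2 and 3, and 0.25, 0.15 and -0.13 in the 50 kPa libraries. The 50 kPa library 3 was thus below the 2 kPa libraries 1 and 2, and the groups overlapped. Library 3 held the lowest level of its group in 75 of 79 genes at 2 kPa and in 75 of 79 at 50 kPa, and in both groups for 72 of them (91.1%). This was so for 24.4% of all tested genes, for 15.1% of the 2091 genes at 100 CPM or more, and for 32.5% of the 77 genes of the mitochondrial ribosome. Between 2 libraries of 1 group the median difference over the ribosomal protein genes ranged from 0.11 to 0.39 in size. Between 1 library of each stiffness it ranged from 0.12 to 0.23 in size with the same replicate number. With different numbers it ranged from 0.039 to 0.50, in both directions. The 0.18 between the stiffnesses comes from 3 libraries against 3, and is not a difference between single libraries. The median log2 fold change was 0.12 without 2 kPa library 3 and 0.29 without 50 kPa library 3, and 0.24 without both. With 50 kPa libraries 1 and 2 summed it was 0.14. The test called 0 of the genes each time.

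**Figure D2:**
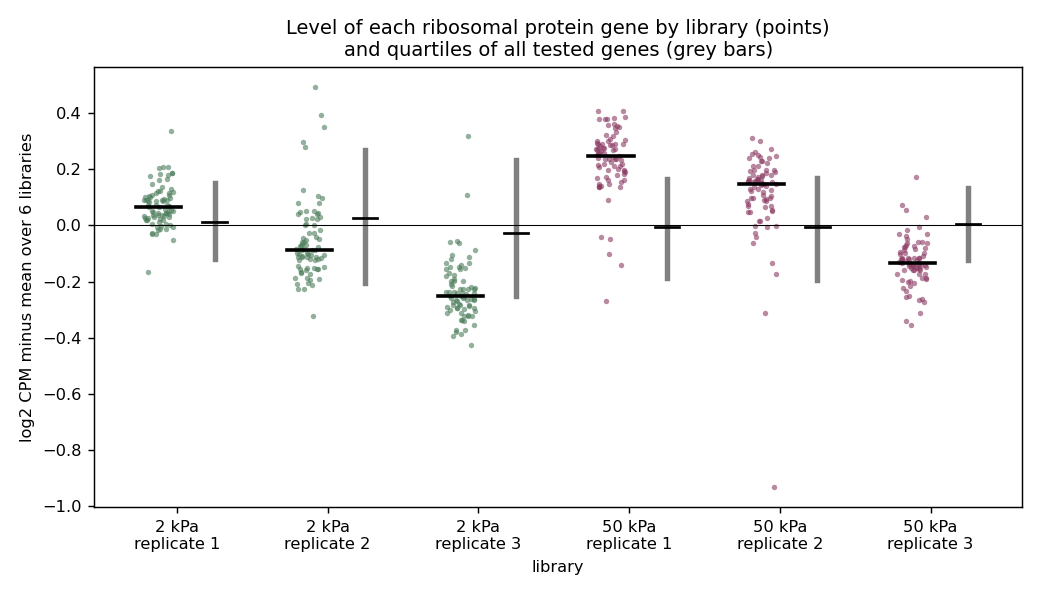
Each point is 1 of the 79 tested ribosomal protein genes in 1 of the 6 libraries, as log2 CPM minus the gene's mean over the 6 libraries, with the median as a black bar. The grey bars beside them run between the quartiles of all tested genes, whose medians stay within -0.026 and 0.026, while the medians of the ribosomal protein genes run from -0.25 to 0.25 and are lowest in replicate 3 of both groups.

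As a share of all counts, the 81 genes took 3.68%, 3.63% and 2.59% in the 2 kPa libraries and 3.71%, 3.49% and 2.86% in the 50 kPa libraries. The means were 3.30% ± 0.617 and 3.35% ± 0.437 (SD, n = 3 each), and replicate 3 was again the lowest of both groups. The ratio of the summed CPM of large to small subunit genes was 1.40, 1.41 and 1.42 at 2 kPa and 1.44, 1.44 and 1.47 at 50 kPa. These ratios did not overlap between the groups, the means differed by 0.038, and no test was made of this sum over chosen genes.

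Among the proteins of the stalk, which recruits the elongation factors, the levels overlapped between the groups. Rplp0, the base of the stalk, was at 1039.8, 993 and 904 CPM at 2 kPa and at 1092, 1028 and 913 CPM at 50 kPa. Rplp1 was at 863, 669 and 646 CPM at 2 kPa and at 933, 859 and 705 CPM at 50 kPa. Rplp2 was at 463, 387 and 345 CPM at 2 kPa and at 465, 417 and 348 CPM at 50 kPa. In all 3 genes replicate 1 was the highest and replicate 3 the lowest of each group. The log2 fold changes were 0.05 ± 0.14 (SE) for Rplp0, 0.20 ± 0.18 for Rplp1 and 0.04 ± 0.17 for Rplp2, and their 95% intervals held 0. Rpl12, at the foot of the stalk, had a log2 fold change of -0.05 ± 0.17.

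The proteins around the mRNA channel and the decoding side of the small subunit showed the same overlap. Rpsa, also known as the laminin receptor precursor, was at 1049.8, 1010.0 and 876 CPM at 2 kPa and at 1089, 984 and 856 CPM at 50 kPa. Rps2 and Rps3 line the entry of the mRNA channel. Rps2 had 832, 832 and 686 CPM at 2 kPa against 881, 838 and 626 CPM at 50 kPa, and Rps3 had 623, 562 and 500.5 CPM against 747, 729 and 549.9 CPM. Rpsa and Rps2 were the members closest to no difference, with log2 fold changes of -0.0037 (95% interval -0.38 to 0.37) and -0.0030 (-0.44 to 0.43), while that of Rps3 was 0.27 ± 0.17. Rps9, which binds early in the assembly of the subunit, and Rps12 of its beak were 2 of the 11 genes on the negative side, at -0.04 ± 0.13 and -0.09 ± 0.17.

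Rps6, the subunit protein that S6 kinases phosphorylate downstream of mTOR, was at 569, 564 and 469 CPM at 2 kPa and at 687, 631 and 526 CPM at 50 kPa. Its 50 kPa libraries 1 and 2 were above all of the 2 kPa libraries and library 3 was not. The log2 fold change was 0.20 ± 0.16, with an adjusted p of 0.422 in edgeR's quasi-likelihood test. Rps19, the gene most often mutated in Diamond-Blackfan anaemia, was at 387, 364 and 324 CPM against 473, 434 and 357 CPM, with a log2 fold change of 0.23 ± 0.15. Rps27a, made as a fusion with ubiquitin, was at 547, 498 and 392 CPM against 566, 520.5 and 406 CPM, with 0.05 ± 0.19.

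Rpl31, of the large subunit near the exit of the peptide tunnel, had the largest positive log2 fold change of the set. It was at 382, 317 and 331 CPM at 2 kPa and at 526, 473 and 388 CPM at 50 kPa, so that every 50 kPa library was above every 2 kPa library. The log2 fold change was 0.43 ± 0.16 (95% interval 0.05 to 0.81), with an adjusted p of 0.145 in edgeR's quasi-likelihood test. Rpl24, which forms a bridge to the small subunit, was the other gene whose groups did not overlap on the higher side, with 288, 302 and 310.5 CPM at 2 kPa and 365, 339 and 339 CPM at 50 kPa. It was the steadiest of those described, with means of 300.0 ± 11.6 and 348 ± 15.1 CPM (SD, n = 3 each) and a log2 fold change of 0.21 ± 0.10 (adjusted p 0.228 in edgeR's quasi-likelihood test). It was picked out after its values were seen. These 2 genes are 2.53% of the 79, where 17.2% of all genes had every 50 kPa library above every 2 kPa library.

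Rpl5 and Rpl11 carry the 5S rRNA into the large subunit and bind Mdm2 when assembly fails. Rpl5 was at 685, 609 and 535 CPM at 2 kPa and at 919, 859 and 626 CPM at 50 kPa, and Rpl11 at 412, 364 and 321 CPM against 460.4, 432 and 348 CPM. In both genes 50 kPa library 3 fell among the 2 kPa libraries. The log2 fold change of Rpl5 was 0.39 ± 0.19, with an adjusted p of 0.234 in edgeR's quasi-likelihood test, and that of Rpl11 was 0.18 ± 0.16. Rpl36, Rpl32, Rps7 and Rpl36a complete the 6 genes with the highest log2 fold changes among those at 5 CPM or more, at 0.37, 0.34, 0.33 and 0.32, each with a 95% interval that held 0.

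The other genes named for their role or level had positive log2 fold changes with TMM scaling, except Rpl41. Rpl3, which reaches the peptidyl transferase centre, had a log2 fold change of 0.29 ± 0.18, Rpl10, which joins late and completes that centre, 0.14 ± 0.12, and Rpl39 of the exit tunnel 0.26 ± 0.16. Rpl7 had 0.17 ± 0.14, Rpl22 0.31 ± 0.18, and Rpl38, known for its part in the translation of Hox mRNAs, 0.15 ± 0.17. Rpl13a, which in human monocytes is also part of a complex that silences inflammatory mRNAs, was at 844, 824 and 658 CPM at 2 kPa and at 859, 835 and 685 CPM at 50 kPa, with 0.03 ± 0.17. Rpl10a had 0.02 ± 0.18, Rpl41, a very short basic peptide, -0.03 ± 0.15, and Rps29 of the small subunit 0.26 ± 0.15. None of these genes had groups that did not overlap.

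Rps27l, the paralogue of Rps27, had the smallest p of the set and went the other way. It was at 94.0, 100.05 and 87.9 CPM at 2 kPa and at 75.9, 72.3 and 64.3 CPM at 50 kPa, from 2224 to 4171 counts a library, and every 50 kPa library was below every 2 kPa library. The log2 fold change was -0.41 ± 0.10 (95% interval -0.65 to -0.17), with an adjusted p of 0.0747 in edgeR's quasi-likelihood test, just above the threshold, and of 0.010 in DESeq2. Without 1 library at a time edgeR's adjusted p ran from 0.0716 to 0.273 and the log2 fold change from -0.45 to -0.34. Rps27 itself was at 2.07, 1.82 and 1.62 CPM at 2 kPa and at 2.58, 2.36 and 2.05 CPM at 50 kPa, with a log2 fold change of 0.34 ± 0.20, and Rps27rt was at 0 counts in all 6 libraries. Rpl3l, the paralogue of Rpl3 known from striated muscle, was the other gene whose groups did not overlap on the lower side, at 1.73, 1.94 and 1.71 CPM against 1.12, 0.687 and 1.42 CPM, which are 23 to 81 counts. Its log2 fold change was -0.74 ± 0.30, with an adjusted p of 0.173 in edgeR's quasi-likelihood test. These 2 genes are again 2.53% of the 79, where 16.9% of all genes had every 50 kPa library below every 2 kPa library.

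The other tissue-restricted paralogues were at or near the floor of the counting. Rpl10l, known from testis, was at 0 counts in all 6 libraries, and Rpl39l had 2, 7 and 19 counts at 2 kPa and 6, 2 and 4 at 50 kPa, so the filter on low counts removed both. Rps4l was at 1.92, 2.25 and 1.68 CPM at 2 kPa and 1.59, 1.40 and 1.79 CPM at 50 kPa, beside 592 ± 53.2 and 668 ± 93.5 CPM (SD, n = 3 each) for Rps4x, and their log2 fold changes were -0.29 ± 0.22 and 0.17 ± 0.16. Rpl30 and Rpl34, which are not such paralogues, were low too and on the negative side, with log2 fold changes of -0.32 ± 0.17 and -0.16 ± 0.18.

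Per kb of exon, most members lay within a narrow band. Over the 78 tested genes with an exon length in GENCODE vM21, the mean level over the 6 libraries had a median of 403 CPM per kb with quartiles of 298 and 594, and 59 genes lay within 2-fold of that median, 14 below it and 5 above it. The length joined the exons of all protein-coding transcripts of a gene, so it can exceed that of 1 mRNA and lower the value per kb. Rps15a, at 302 CPM, had 5395 such bases against 640 in its chosen transcript, and lay at 56.0 CPM per kb. Rplp1 was the highest at 1562 CPM per kb, followed by Rpl41 at 933 and Rps29 at 874. Among the lowest were Rpl26 at 0.856, Rpl3l at 0.898, Rps27 at 4.51, Rpl30 at 4.61 and Rpl34 at 10.5 CPM per kb. Rpl26, Rps27, Rpl30 and Rpl34 encode core subunits. The order of the genes was nearly the same at both stiffnesses (Spearman's rho 0.984 between mean CPM at 2 and 50 kPa, across genes, which share libraries and are not independent replicates).

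Many of these mRNAs share sequence with processed pseudogenes and other copies, and the authors' handling of reads that match more than 1 gene was not stated in the labels. Of the 50-base windows of the chosen transcript of each of 80 genes, a median of 53.3% also occurred in another annotated gene, from 0% to 98.6% for Rps27, and 43 genes were over 50%. Matches on either strand counted, also those to genes that overlap the same locus, so the share is not one of pseudogenes and copies alone. The low genes Rps27, Rpl30, Rpl26 and Rpl34 were at 98.6%, 76.4%, 71.3% and 48.9%, and Rpl5, at 345 CPM per kb, was at 93.8%. Exons of Fam69a overlap those of Rpl5 on the opposite strand. The gene that shared most with Rpl5, Gm15500, held 48.5% of its windows. Across 78 genes the share of windows had a Spearman's rho of 0.12 with the level per kb and of 0.094 with the log2 fold change, given as descriptions of genes that share libraries. The part of shared sequence in these levels was not tested. Annotated exons of 5 members overlapped another gene on the same strand and those of 15 on the opposite strand, and whether the counting used strand is not stated in the labels.

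**Figure D3:**
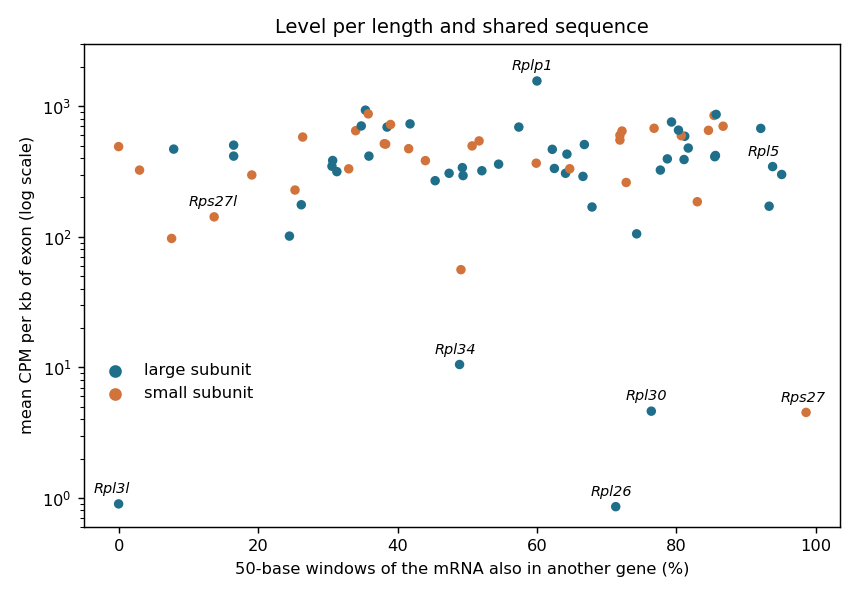
The mean level of each ribosomal protein gene over 6 libraries in CPM per kb of exon (log scale) is plotted against the percentage of its mRNA's 50-base windows that also occur in another annotated gene. Matches on either strand counted, also those to overlapping genes. Genes in the band around the median of 403 CPM per kb span nearly the whole range of shared sequence, and Rps27, Rpl30, Rpl26, Rpl34 and Rpl3l lie far below it.

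Subunits whose names fall outside the rule gave mixed values. Rps3a1 had a log2 fold change of 0.28 ± 0.20, Fau, made as a fusion with a ubiquitin-like protein, 0.25 ± 0.15, and Gnb2l1 (Rack1), the signalling scaffold on the small subunit, 0.19 ± 0.14. The paralogues Rpl22l1 and Rpl7l1 were on the other side, at -0.39 ± 0.15 and -0.36 ± 0.14, with adjusted p-values of 0.148 and 0.167 in edgeR's quasi-likelihood test, and Rpl36al was at -0.07 ± 0.14. Rpl22l1 had 79.3, 77.3 and 59.6 CPM at 2 kPa and 60.01, 56.5 and 48.1 CPM at 50 kPa, with overlapping groups, while Rpl22 had 217, 184 and 158 CPM against 265, 243 and 187 CPM. In this list of 8 tested genes, of which 1, Rps19-ps3, is a pseudogene row, 0 were called and 2 had an unadjusted p under 0.05.

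The counts of called genes in the wider translation apparatus are to be read against 1.47% higher, 1.98% lower and 27.8% at an unadjusted p under 0.05 over all genes tested. Of 14 elongation and termination factors tested, 1 was higher and 0 were lower: Eef1a2, the muscle and neuron form of the factor that brings aminoacyl-tRNA to the ribosome, rose from 0.307 ± 0.0907 to 1.78 ± 0.324 CPM (SD, n = 3 each), with a log2 fold change of 2.52 ± 0.31 and an adjusted p of 0.0304 in edgeR's quasi-likelihood test. At 2 kPa Eef1a2 was near the floor of the counting, where Rpl39l, removed by the filter on low counts, had a mean of 0.263 CPM. Eef1a1, the widely expressed counterpart of Eef1a2, was at 4119.7 ± 306 and 5123 ± 340 CPM, with 0.31 ± 0.18, and Eef2, the translocation factor, had 0.26 ± 0.15. Of 64 tested genes of ribosome assembly, 0 were higher and 1 was lower: Ebna1bp2, of the nucleolar large-subunit assembly, fell by 0.54 ± 0.093 on the log2 scale (adjusted p 0.0444 in edgeR's quasi-likelihood test), from 35.2 ± 3.09 to 24.3 ± 0.191 CPM. The median log2 fold change was -0.17 over the assembly genes, of which 52 were negative, and -0.058 over the elongation factors. The calls of Eef1a2 and Ebna1bp2 both ended without 50 kPa library 1 or 2. Of 39 initiation factors tested 0 were called, 8 had an unadjusted p under 0.05, and the median was -0.039.

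Genes that share the TOP start with the ribosomal proteins had a like median. Of 18 other mRNAs known for a TOP start, 0 were called, 5 had an unadjusted p under 0.05 (where the share over all genes is 27.8%), 13 were positive and the median was 0.19. Eif3f and Eif4b, of the initiation machinery, had 0.52 ± 0.13 and 0.51 ± 0.17, and Npm1, the abundant nucleolar chaperone, -0.40 ± 0.20. Eif3f is also in the list of initiation factors, so the lists are not separate. Among the ribosomal protein genes themselves, the 13 with the run at the listed start had a median of 0.20 and the 45 tested genes with another listed start 0.17. With CCGGAAG in the promoter window the median was 0.16 over 24 genes, and without it 0.21 over 34. Of 31 tested genes that signal growth to the ribosome 0 were called and 4 had an unadjusted p under 0.05, against the same 27.8%. Mycn, at 1.95 ± 0.710 CPM at 2 kPa and 0.215 ± 0.214 CPM at 50 kPa, had a log2 fold change of -3.15 ± 0.65 (adjusted p 0.0557 in edgeR's quasi-likelihood test), and Myc had -0.07 ± 0.33. The 50 kPa level of Mycn was near the floor of the counting.

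The mitochondrial ribosome, whose proteins are encoded in the nucleus by another gene family, lay on the other side of 0. Of its 77 tested genes 0 were called, 10 had an unadjusted p under 0.05 (27.8% over all genes), 67 were negative and the median was -0.13, against 11 negative of 79 and a median of 0.18 for the cytosolic ribosome. The difference between the families was not tested. Mrpl54 had the smallest p, at 15.7, 17.5 and 16.2 CPM at 2 kPa and 11.7, 9.49 and 11.02 CPM at 50 kPa, with a log2 fold change of -0.62 ± 0.12 (adjusted p 0.0518 in edgeR's quasi-likelihood test).

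**Figure D4:**
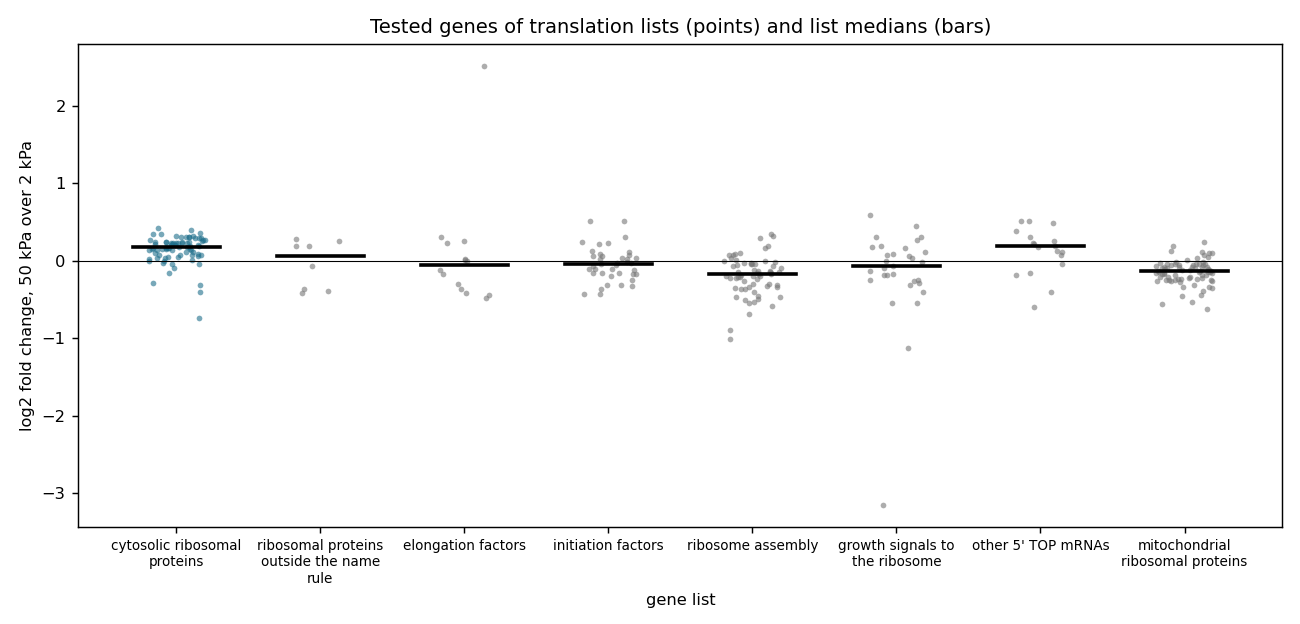
Each point is the edgeR log2 fold change, 50 kPa over 2 kPa, of 1 tested gene, in 8 lists of the translation apparatus, with the list's median as a bar. A gene can be in more than 1 list, as Eif3f is. The medians are 0.18 for the cytosolic ribosomal proteins and 0.19 for other TOP mRNAs, against -0.17 for ribosome assembly and -0.13 for the mitochondrial ribosome.

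Marker genes of other marrow cells differed in level between the groups. The libraries held 33834485 to 36270938 counts. All 11 tested markers of neutrophils, 8 of B and plasma cells and 5 of megakaryocytes and platelets had a negative log2 fold change. So did 6994 of the 13155 genes tested. Called lower at 50 kPa were 6 of the 11, 7 of the 8 and 4 of the 5. Of each list 0 were called higher, where 1.98% of all genes were called lower. As with all calls, none of these held without 50 kPa library 1 or 2. The summed level of the neutrophil markers was 3229 to 6941 CPM at 2 kPa and 485 to 1183 CPM at 50 kPa, and that of the B and plasma cell markers 867 to 1393 against 24.8 to 105 CPM. The megakaryocyte and platelet markers summed to 211 to 368 against 75.9 to 239 CPM. Dendritic cell markers summed to 5156 to 10004 CPM at 2 kPa and 12028 to 18272 CPM at 50 kPa and macrophage markers to 1886 to 3367 against 4576 to 4763 CPM, with 0 called of 10 and of 9. Of the 10 dendritic cell markers 5 had a positive and 5 a negative log2 fold change, with a median of 0.015. Their sum therefore does not stand for the list as a whole. Of the 9 macrophage markers 7 were positive and 2 negative, with a median of 0.98. Cycling markers had 1 of 8 called lower, and all 8 had a negative log2 fold change, with a median of -0.63. They summed to 522 to 764 CPM at 2 kPa and 420 to 512 CPM at 50 kPa. Of the erythroid markers 5 of 6 were at 0 in every library. At 2 kPa 8.06% ± 0.879 (SD, n = 3) of each library's counts lay in its 10 most abundant genes, and at 50 kPa 11.5% ± 1.04 (SD, n = 3) did. The part of these differences in the levels of the ribosomal protein genes was not tested.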

How the data were processed

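For each library the authors deposited a table of raw counts by gene symbol. The tools TopHat2 2.0.11, HTSeq 0.6.1p2, FastQC 0.11.2 and edgeR (3.8.6 and 3.16.5) and the builds hg19 and mm10 appear, without roles, per the submitters' processing notes. For annotation, strand setting and reads matching several genes, nothing is given in the sources used here. The libraries were made with a directional kit, per the labels' protocols. From the counts, R 4.3.3 with edgeR 4.0.16 filtered genes (filterByExpr, minimum count 10, minimum total 15), scaled libraries by TMM and ran the quasi-likelihood test on all 6 libraries with stiffness as the only term, and Benjamini-Hochberg adjustment ran over the 13155 genes kept. A gene was called at an adjusted p under 0.05. The SE is the log2 fold change divided by the square root of F. The procedure was tested on simulated data. DESeq2 1.42.0, limma-voom 3.58.1, other scalings and filters, and fits without single libraries were the alternatives.

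The ribosomal protein genes, the gene lists and the rules were chosen with earlier results of these data known. The members named are those with the 6 largest positive and negative log2 fold changes at 5 CPM or more, the 5 of highest CPM, the 3 highest per kb, paralogue pairs, members with a textbook role and those removed by the filter, with, in other lists, up to 3 of smallest p; Rpl24, Rpl26, Eef1a1, Eef2, Npm1 and Myc were added after their values were seen. Lengths and shared sequence come from GENCODE vM21, of which Rps4l had no match, and starts from RefSeq (GRCm38.p6), which listed 60 of the 81 members. Protein sequences were not used here. Some results for single genes are not reported here.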

Additional observations from a re-analysis of the deposited data

How the results depend on the processing

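The counts of ribosomal protein genes called, 0 higher and 0 lower, were the same under every alternative run except DESeq2, which called 1 lower (Rps27l). The median log2 fold change ran from 0.12 to 0.29 over the fits without 1 library, and was 0.24 without replicate 3 of both groups, an alternative added after the data were seen. With total-count scaling it was 0.035, with 51 of 79 positive, while the median of all genes moved from -0.028 to -0.16. With the 10 most abundant other genes left out of the total, the share at 50 kPa was 3.79% and at 2 kPa 3.57%. Of 644 values of 36 named members under 18 alternatives, 601 kept direction and call, and 42 changed sign, in 11 members, all within 0.14 of 0. For Rpsa and Rps2 these were 0.0030 and 0.0044 with RLE scaling, 0.0081 and 0.0097 with upper-quartile scaling, 0.0079 and 0.0087 with no filter, 0.0098 and 0.011 in DESeq2, and 0.036 and 0.074 without replicate 3 of both groups. With total-count scaling Rplp0 was at -0.094, Rpl13a -0.12, Rplp2 -0.10, Rpl10a -0.13 and Rps27a -0.094. Rpl10a was also at -0.00097 with a 5 CPM filter and -0.030 with 50 kPa replicates 1 and 2 summed. Without 1 library each, the ranges were -0.077 to 0.089 for Rpsa, -0.089 to 0.14 for Rps2, -0.0063 to 0.12 for Rplp0, -0.072 to 0.13 for Rpl13a, -0.051 to 0.17 for Rplp2, -0.10 to 0.15 for Rpl10a, -0.070 to 0.19 for Rps27a, -0.16 to 0.069 for Rpl12, -0.11 to 0.026 for Rps9, -0.10 to 0.065 for Rpl41 and -0.20 to 0.019 for Rps12. The cause was not tested. Members with an unadjusted p under 0.05 numbered 3 in the main fit, where 27.8% of all genes were under that cut. They numbered 17 without 50 kPa replicate 3, 12 without replicate 3 of both groups and 8 in DESeq2. They numbered 1 without 2 kPa replicate 2, without 50 kPa replicate 1, without 50 kPa replicate 2 or with the latter 2 summed. The share of all genes under that cut was not counted in these alternatives. Calls over all genes numbered 454, but 36 with a 5 CPM filter, 2235 in DESeq2, 0 with 50 kPa replicates 1 and 2 summed, and 0 to 511 without 1 library.

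Libraries with the same replicate number did not all deviate together (r = 0.54, -0.11 and 0.49 across 13155 genes for numbers 1, 2 and 3), and the number was not treated as a pairing. Over the 79 members the median deviation from the group mean was 0.15, 0.0070 and -0.16 in 2 kPa libraries 1, 2 and 3. In the 50 kPa libraries it was 0.17, 0.048 and -0.22, which is the same order. With a replicate block the median was 0.18, 0 members were called, 10 had an unadjusted p under 0.05, and 776 genes were called in all. The share of all genes under the unadjusted cut was not counted for this fit. By number, 66 of 79 members were higher at 50 kPa in all 3 comparisons, against 29.0% of all genes.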
